A study of Mus musculus with 8 samples.

Results

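Notch receptors, the Fringe enzymes that modify them and the genes they act through were described in mouse B cells sorted by whether they transcribe Il10. The 9 genes, Notch1, Notch2, Adam10, Lfng, Mfng, Rfng, Rbpj, Hes1 and Dtx1, were selected from the pathway by name out of 26589 genes in the deposited table, and each symbol matched a single Ensembl identifier in GENCODE M21. They were chosen by a proposer who already knew how FPKM values differed between the sorted groups, so what follows for these genes is a description of that comparison with no p-value. The other genes of the pathway, taken from textbook lists, were tested. Those lists too were chosen with earlier results of these data known, so their p-values are not free of that choice.

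The study profiled splenic B cells of IL-10-eGFP Tiger mice, a knock-in strain in which Il10 transcription drives a green fluorescent reporter. Purified B cells were cultured with lipopolysaccharide (LPS, a bacterial ligand of Toll-like receptor 4) at 3 µg/ml for 48 h. Fluorescent cells (IL-10+) and non-fluorescent cells (IL-10-) were then sorted, so all 8 libraries share the strain, the stimulus and the culture conditions. The treatment field of the labels says untreated, against the protocols, which were followed here. Each group has 4 libraries numbered 1 to 4, and the labels do not say whether a number stands for a mouse or a culture, so the spread between libraries may be partly technical. Ages and sexes of the mice are not stated in the labels.

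Notch receptors are cut in a fixed series of steps. A ligand on a neighbouring cell, of the Delta-like or Jagged family, pulls on the receptor, the metalloprotease ADAM10 cuts it outside the membrane, and γ-secretase then frees an intracellular part that enters the nucleus, binds the DNA-binding protein RBPJ and switches on targets such as Hes1 and Dtx1. Fringe enzymes add N-acetylglucosamine to O-linked fucose on the receptor in the Golgi, which in the case of Lfng and Mfng favours Delta-like over Jagged ligands. In the spleen, NOTCH2 bound by DLL1 is required for marginal zone B cells, and lunatic fringe (Lfng) and manic fringe (Mfng) help their precursors compete for DLL1.

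Library totals recovered from the deposited values were 27380330 to 29968210 reads. Values are in FPKM, that is, reads scaled by gene length and by library total, so that levels of different genes can be set side by side. Il10, the basis of the sort, had a level of 36.9 ± 5.32 FPKM where the reporter was on and 3.17 ± 1.48 FPKM where it was off (SD, n = 4). The 6 B cell markers, among them Cd79a, Cd79b, Ms4a1, Pax5 and Ebf1, were present in every library, with a summed level of 1168 to 1468 FPKM in IL-10+ and 1267 to 1706 FPKM in IL-10- libraries, though Ms4a1 (CD20) and Pax5 were lower in IL-10+ cells without overlap (log2 change -0.59 and -0.78, limma adjusted p = 0.000213 and 0.00209). None of the 5 T cell, 2 NK cell, 4 macrophage, 3 erythroid or 2 stromal markers measured reached 1 FPKM in any library, and among neutrophil and dendritic cell markers only S100a9 (in IL-10- replicate 2) and Flt3 did.

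Notch2 was the more abundant receptor in both groups and was lower in IL-10+ cells, while Notch1 was higher in them. Notch2 (chromosome 3, 98013527 to 98150361, GRCm38, plus strand) stood at 22.2, 18.0, 15.7 and 15.7 FPKM in IL-10+ replicates 1 to 4 and at 38.7, 27.7, 30.7 and 27.0 FPKM in IL-10- replicates 1 to 4. Every IL-10+ library lay below every IL-10- library, and replicate 1 was the highest of its group in both. The group means were 17.9 ± 3.08 and 31.0 ± 5.34 FPKM (SD, n = 4), a 1.73-fold difference, and the log2 change of FPKM + 1 was -0.76 (SE 0.143).

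Notch1 (chromosome 2, 26457903 to 26516663, minus strand) stood at 10.9, 9.50, 8.79 and 9.46 FPKM in IL-10+ replicates 1 to 4 and at 8.30, 6.28, 6.86 and 7.86 FPKM in IL-10- replicates 1 to 4. The groups did not overlap here either, but they came close, with the lowest IL-10+ library at 8.79 and the highest IL-10- library at 8.30 FPKM. Means were 9.67 ± 0.90 and 7.32 ± 0.921 FPKM (SD, n = 4), 1.32-fold apart, with a log2 change of 0.36 (SE 0.0966).

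Because the 2 receptors differed in opposite directions, their balance shifted more than either level. The ratio of Notch2 to Notch1 was 1.66 to 2.04 in IL-10+ libraries and 3.44 to 4.66 in IL-10- libraries, with means of 1.84 ± 0.159 and 4.25 ± 0.549 (SD, n = 4). A ratio taken within a library does not depend on how libraries are scaled to each other. Notch1 thus made up 35.2% ± 1.97 of the summed FPKM of both receptors in IL-10+ and 19.2% ± 2.23 in IL-10- cells. Their sum, 27.6 ± 3.94 FPKM against 38.4 ± 5.94 FPKM without the reporter, did not overlap either in the deposited values. The gap was narrow, from 33.2 FPKM in IL-10+ replicate 1 to 34.0 FPKM in IL-10- replicate 2. Unlike the ratio, the sum depends on scaling. Scaling without immunoglobulin and mitochondrial genes divides these libraries by 0.979 and 1.024, which would close the gap. Immunoglobulin genes took 13.2% to 16.8% of FPKM in IL-10+ and 3.73% to 4.73% in IL-10- libraries. Notch3 and Notch4, the remaining mammalian receptors, did not reach 0.1 FPKM in any library.

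**Figure D1:**
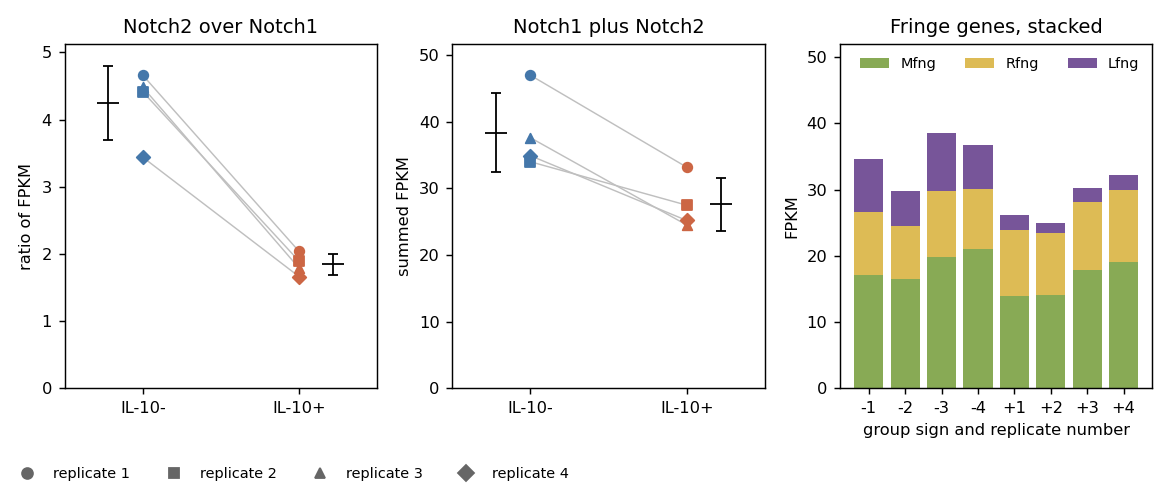
Balance between the receptors and between the Fringe genes. Left and middle: ratio of Notch2 to Notch1 and the sum of both in FPKM for each library, with lines joining libraries of the same replicate number and black marks for mean ± SD (n = 4). Right: FPKM of Mfng, Rfng and Lfng stacked per library, IL-10- (-) and IL-10+ (+) with the replicate number. The receptor ratio is at most 2.04 in IL-10+ and at least 3.44 in IL-10- libraries, and the Lfng layer is thin in all 4 IL-10+ libraries.

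Adam10, the protease that makes the ligand-dependent cut outside the membrane, was close to equal in the groups. Its level (chromosome 9, 70678997 to 70780229, plus strand) was 25.0, 25.3, 24.9 and 23.5 FPKM in IL-10+ and 23.0, 23.1, 21.8 and 22.8 FPKM in IL-10- replicates 1 to 4. The groups did not overlap, yet the means of 24.7 ± 0.80 and 22.7 ± 0.601 FPKM (SD, n = 4) were only 1.09-fold apart, and the log2 change was 0.12 (SE 0.0549).

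Of the 3 Fringe genes, Lfng differed most, and on the scale of log2(FPKM + 1) it had the largest difference of all 9 genes. As ratios of group means, Lfng (3.51-fold lower in IL-10+ cells) and Hes1 (3.39-fold higher) were close. Lfng (chromosome 5, 140607320 to 140615545, plus strand) stood at 2.245, 1.571, 2.102 and 2.211 FPKM in IL-10+ and at 8.03, 5.17, 8.76 and 6.61 FPKM in IL-10- replicates 1 to 4. The highest IL-10+ library was below the lowest IL-10- library by more than 2-fold. The means of 2.03 ± 0.314 and 7.14 ± 1.59 FPKM (SD, n = 4) were 3.51-fold apart, and the log2 change was -1.41 (SE 0.149). These values rest on 110 to 155 recovered reads in IL-10+ and 369 to 618 in IL-10- libraries. In these bulk libraries, fewer cells with the transcript and less of it per cell cannot be told apart, and the same holds for the other genes below.

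Mfng and Rfng overlapped between groups. Mfng (chromosome 15, 78755882 to 78773475, minus strand) was the most abundant Fringe gene, at 13.9, 14.1, 17.9 and 19.1 FPKM in IL-10+ and 17.1, 16.6, 19.7 and 21.1 FPKM in IL-10- replicates 1 to 4. Replicates 1 and 2 were lower than 3 and 4 in both groups, and within each replicate number the IL-10+ library was the lower one, by 0.133 to 0.282 on the log2 scale. Rfng (radical fringe, chromosome 11, 120780746 to 120784207, minus strand) was at 9.99, 9.24, 10.2 and 10.9 FPKM in IL-10+ and 9.51, 8.02, 10.0 and 9.04 FPKM in IL-10- replicates 1 to 4, with means of 10.1 ± 0.674 and 9.14 ± 0.848 FPKM (SD, n = 4). Its IL-10+ library was the higher one in each number, by 0.02 to 0.24 on the log2 scale.

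The 3 genes together gave 28.4 ± 3.39 FPKM in IL-10+ against 34.9 ± 3.79 FPKM in the IL-10- sort (SD, n = 4). The libraries overlapped, and the sum was the lower one with the reporter in each of the 4 numbers. Lfng supplied 7.18% ± 0.984 of that sum in IL-10+ and 20.3% ± 3.06 in IL-10- cells. Mfng supplied 57.1% ± 2.91 and 53.4% ± 3.73, and Rfng 35.7% ± 2.29 and 26.2% ± 1.25. The Fringe transcripts of both groups were therefore mostly manic and radical fringe, with lunatic fringe the smallest share and smaller still in IL-10+ cells.

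**Figure D2:**
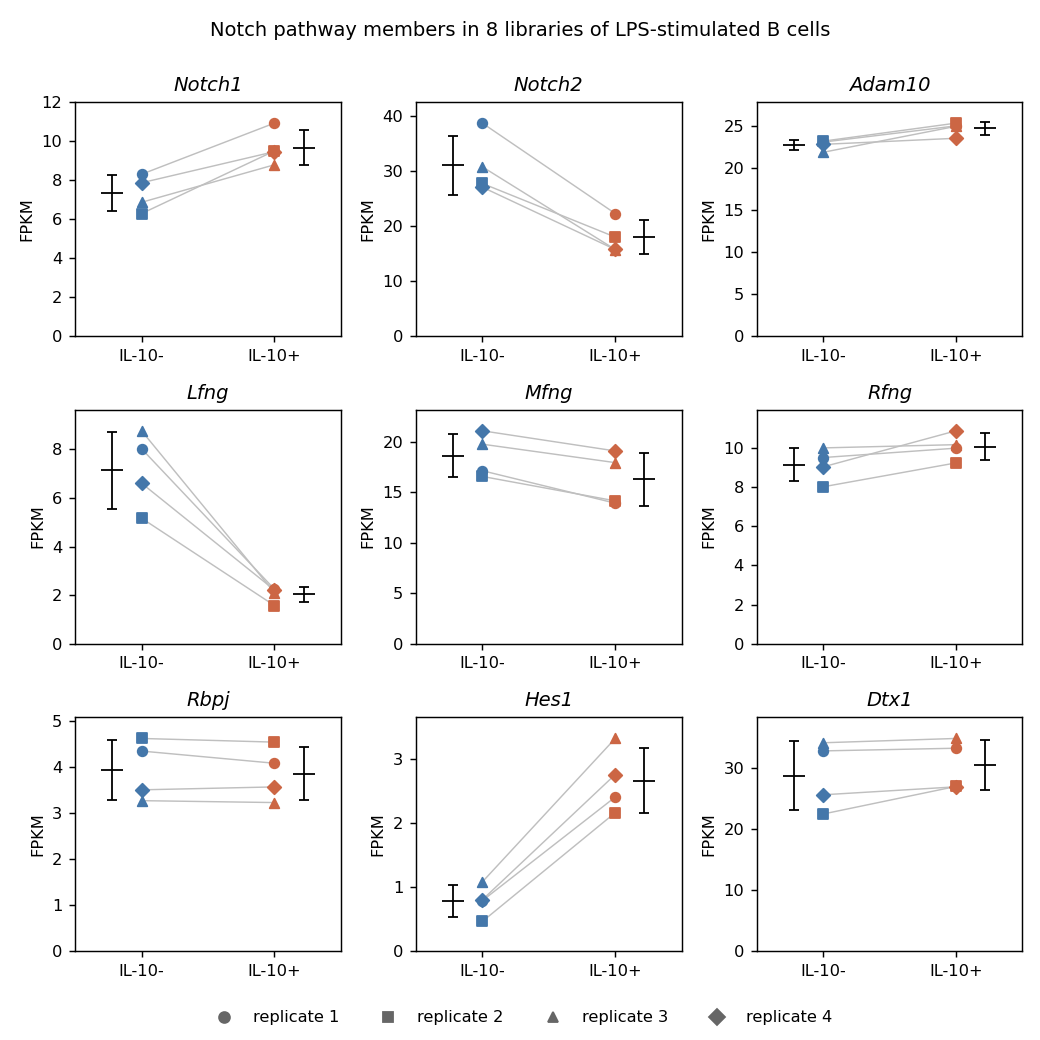
FPKM of the 9 genes in each library. Each panel has its own linear axis from 0, points are libraries (shape gives the replicate number), grey lines join libraries of the same number and black marks show mean ± SD (n = 4). Notch2 and Lfng are lower and Notch1 and Hes1 higher in all 4 IL-10+ libraries, and Rbpj and Dtx1 vary more by replicate number than by group.

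The stretches around RefSeq starts of Lfng and of both receptors are shown because RBPJ acts by binding DNA. RefSeq windows of 300 bases (250 before the start and 50 after it, build GRCm38.p6, given 5′ to 3′ on the gene's strand) matched 7 of the 9 genes, and Hes1 and Mfng were not matched. Capitals mark TGGGAA, the core of the RBPJ motif, or its reverse complement TTCCCA, and no other motif was searched. The Lfng window is chr5:140607091-140607390 (plus strand), the Notch2 window chr3:98013288-98013587 (plus strand) and the Notch1 window chr2:26503773-26504072 (minus strand). The Notch1 and Dtx1 windows and both Rbpj windows lie inside the gene spans given here from GENCODE. They thus surround other starts than the outermost annotated one, where no motif was searched.
Lfng: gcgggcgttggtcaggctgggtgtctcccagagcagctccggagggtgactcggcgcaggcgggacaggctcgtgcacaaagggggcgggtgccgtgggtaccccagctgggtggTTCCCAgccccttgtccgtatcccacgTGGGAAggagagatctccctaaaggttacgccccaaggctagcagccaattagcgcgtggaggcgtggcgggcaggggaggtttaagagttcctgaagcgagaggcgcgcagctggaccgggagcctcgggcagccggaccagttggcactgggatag
Notch2: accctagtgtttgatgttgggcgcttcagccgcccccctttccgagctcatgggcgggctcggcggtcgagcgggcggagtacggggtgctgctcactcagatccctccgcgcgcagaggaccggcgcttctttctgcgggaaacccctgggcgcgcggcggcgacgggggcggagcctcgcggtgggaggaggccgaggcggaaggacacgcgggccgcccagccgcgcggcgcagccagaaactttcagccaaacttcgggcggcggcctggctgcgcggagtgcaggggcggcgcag
Notch1: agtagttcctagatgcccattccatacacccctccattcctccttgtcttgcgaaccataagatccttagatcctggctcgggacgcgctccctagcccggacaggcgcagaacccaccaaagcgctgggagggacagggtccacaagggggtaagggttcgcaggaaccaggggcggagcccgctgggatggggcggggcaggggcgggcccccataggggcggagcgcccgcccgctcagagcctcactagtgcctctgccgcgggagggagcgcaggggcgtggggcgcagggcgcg
Lfng held the core 2 times, on the minus strand 135 to 130 bases before the start and on the plus strand 108 to 103 bases before it. Notch2, Notch1, Adam10, Rfng and Dtx1 held no copy in this window, and Rbpj itself held it in both of its windows. Of 32817 distinct windows of this length in the table, 25.6% held at least 1 copy and 3.79% at least 2. A match is a string of letters and not a measured binding site.

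Rbpj, the DNA-binding partner of all Notch receptors, was level between the groups. It lies on chromosome 5 (53466152 to 53657362, plus strand) and stood at 4.09, 4.55, 3.24 and 3.58 FPKM in IL-10+ and 4.36, 4.63, 3.28 and 3.51 FPKM in IL-10- replicates 1 to 4. Libraries of the same number lay within 0.0733 of each other on the log2 scale, and replicates 1 and 2 were above 3 and 4 in both groups. Means were 3.86 ± 0.577 and 3.94 ± 0.651 FPKM (SD, n = 4), with a log2 change of -0.02 (SE 0.119) that turned to 0.01 with median-of-ratios scaling.

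The 2 targets differed from each other. Hes1, a transcriptional repressor and a classical direct target, lies on chromosome 16 (30064384 to 30067796, plus strand) and stood at 2.40, 2.16, 3.32 and 2.75 FPKM in IL-10+ and at 0.789, 0.465, 1.08 and 0.803 FPKM in IL-10- replicates 1 to 4. All IL-10+ libraries lay above all IL-10- libraries. Means were 2.66 ± 0.502 and 0.784 ± 0.252 FPKM (SD, n = 4), a 3.39-fold difference of low levels, resting on 123 to 195 and 27 to 62 recovered reads. On the scale of log2(FPKM + 1) the change was 1.04 (SE 0.136), which understates the ratio because the level is close to the pseudocount of 1. Only 1 of the IL-10- libraries reached the 1 FPKM used as a filter, so Hes1 passed that filter mainly through the IL-10+ libraries.

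Dtx1, which encodes the ubiquitin ligase Deltex-1 and is a target of NOTCH2 in marginal zone B cells, did not follow Hes1. Its level (chromosome 5, 120680202 to 120711927, minus strand) was 33.3, 27.0, 34.9 and 26.9 FPKM in IL-10+ and 32.8, 22.5, 34.2 and 25.6 FPKM in IL-10- replicates 1 to 4. Replicates 1 and 3 were high and 2 and 4 low in both groups, and the groups overlapped almost wholly. Within each number the IL-10+ library was the higher one, by 0.02 to 0.25 on the log2 scale. Means were 30.5 ± 4.14 and 28.8 ± 5.62 FPKM (SD, n = 4), with a log2 change of 0.09 (SE 0.150) that was -0.01 without IL-10- replicate 2. Dtx1 transcripts were 9.78 to 13.8 times those of Hes1 in IL-10+ libraries and 31.6 to 48.4 times in IL-10- libraries.

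**Figure D3:**
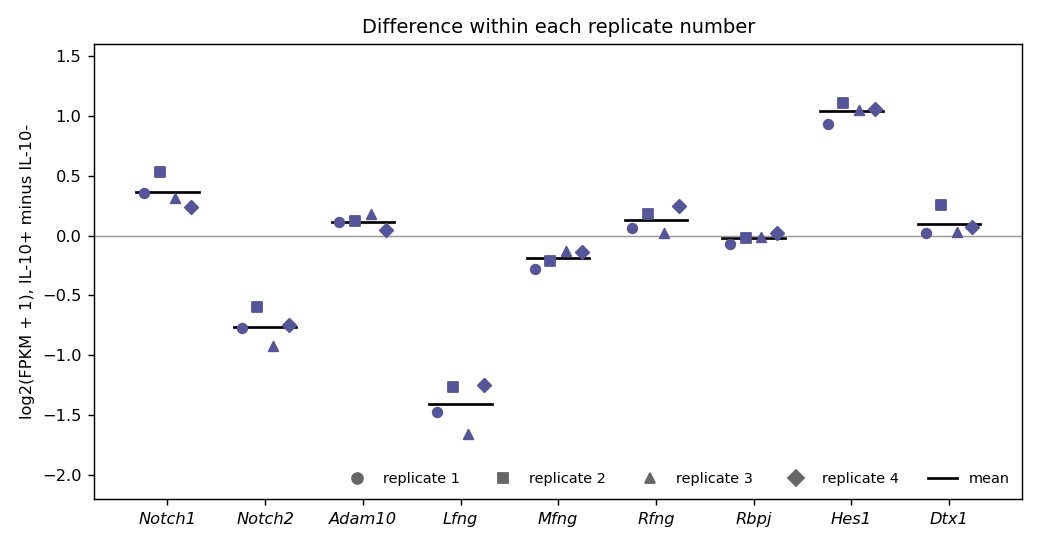
Difference of log2(FPKM + 1) between the IL-10+ and the IL-10- library of each replicate number for the 9 genes. Points are the 4 numbers and black lines their mean. Lfng lies between -1.65 and -1.24 and Hes1 between 0.93 and 1.11, while the points of Rbpj lie at 0.

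Within replicate numbers the differences of Rbpj took both signs, and those of each other gene kept 1 sign. The share of all genes tested that keep 1 sign was not counted, so nothing is read from this. The 4 differences were -0.93 to -0.60 for Notch2, 0.24 to 0.53 for Notch1, -1.65 to -1.24 for Lfng, 0.93 to 1.11 for Hes1 and 0.04 to 0.18 for Adam10. The order of levels differed between the groups. In IL-10- cells Notch2 (31.0 FPKM), Dtx1 (28.8 FPKM) and Adam10 (22.7 FPKM) led, the range of Dtx1 overlapping both others, followed by Mfng, Rfng, Notch1, Lfng and Rbpj, with Hes1 last at 0.784 FPKM. Notch1 overlapped its neighbours Rfng and Lfng in that order. In IL-10+ cells Dtx1 and Adam10 led, Notch2 overlapped with Mfng, Rfng overlapped with Notch1, and Rbpj, Hes1 and Lfng closed the order, each overlapping the next.

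Counts over the 9 genes are given beside those of the table and nothing is read from them, since these genes were chosen with the comparison known. A gene was called when limma's Benjamini-Hochberg adjusted p was under 0.05 over the 11329 genes that reached 1 FPKM in 4 or more libraries. All 9 genes were among those tested, and 4 were called, where 19.7% of all genes tested were. Notch1 and Hes1 were called as higher (10.6% of all genes) and Notch2 and Lfng as lower (9.18%). The split over all genes depended on the fit: 1196 were higher and 1040 lower as fitted here, 1313 and 798 with median-of-ratios scaling, and 2312 and 3771 with the replicate block. Notch1 was not called without IL-10+ replicates 1, 2 or 4, without IL-10- replicates 2 or 3, or with no filter on low values. With the replicate number as a block, Mfng and Adam10 were called too, 6 in all, where 53.7% of all genes were. The groups did not overlap in 5 of the 9 genes and in 25.2% of all genes tested. The median log2 change was 0.09 over the 9 genes and -0.06 over all genes tested.

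Other genes of the pathway stood in 8 textbook lists holding 67 genes, of which 66 were in the table, 44 were expressed highly enough to be tested and 11 were called, 4 higher and 7 lower in IL-10+ cells. That is 25.0% of those tested, against 19.7% of all genes, and the median log2 change was -0.01 against -0.06. The lists were chosen with earlier results of these data known, so nothing is read from these shares. With the replicate block 24 were called (9 higher, 15 lower), or 54.5% against 53.7%. With median-of-ratios scaling the split was 5 higher and 5 lower. Leaving out IL-10+ replicate 1 or IL-10- replicate 3 gave 7, leaving out IL-10+ replicate 2 or IL-10- replicate 4 gave 6, and replicates 1 and 2 alone gave 4.

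Ligand genes stayed below 1 FPKM. None of Dll1, Dll3, Dll4, Jag1 and Jag2 was tested, and the highest value of any of them in any library was 0.518 FPKM. The most abundant were Dll1 (IL-10+ 0.193 ± 0.0403 FPKM, IL-10- 0.265 ± 0.108 FPKM) and Jag2 (IL-10+ 0.189 ± 0.0499 FPKM, IL-10- 0.295 ± 0.166 FPKM; SD, n = 4).

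Of 5 tested genes that glycosylate or mature the receptor 1 passed. Poglut1, which adds O-linked glucose to the receptor's EGF repeats, was at 9.45 ± 0.390 FPKM in IL-10- cells and fell to 7.99 ± 0.327 FPKM in IL-10+ cells (SD, n = 4; log2 change -0.22, limma adjusted p = 0.0290). Its call ended without IL-10+ replicates 1, 2 or 3, without IL-10- replicates 2 or 4 (adjusted p up to 0.0869) and with median-of-ratios scaling (adjusted p = 0.0548). Xxylt1, a xylosyltransferase that extends that glucose, stood at 6.97 ± 0.682 against 8.18 ± 0.484 FPKM (limma adjusted p = 0.0985, and 0.00510 with the replicate block). Gxylt1, which adds the first xylose, stood at 10.4 ± 0.893 against 9.85 ± 0.485 FPKM (limma adjusted p = 0.565).

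None of the 6 tested genes for receptor cleavage besides Adam10 passed, though 4 were called as higher with the replicate block. Psenen, which encodes the small γ-secretase subunit PEN-2, stood at 29.8 ± 1.48 and 26.7 ± 2.04 FPKM (SD, n = 4; limma adjusted p = 0.175, and 0.0239 with the block). In each of the 4 numbers the IL-10+ value was the higher one.

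In the nucleus, 1 of 8 tested co-activators passed. Kat2b, the acetyltransferase PCAF, rose from 4.85 ± 0.543 to 7.07 ± 0.938 FPKM (SD, n = 4; log2 change 0.46, limma adjusted p = 0.0143), higher in 4 of 4 numbers. Its paralog Kat2a stood at 23.3 ± 3.17 against 30.0 ± 4.88 FPKM (limma adjusted p = 0.105, and 0.00101 with the block). The acetyltransferase gene Ep300 stood at 17.8 ± 1.59 and 18.1 ± 2.73 FPKM (limma adjusted p = 0.953).

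Of 11 tested co-repressors 2 fell. Hdac1, a histone deacetylase, fell to 57.6 ± 2.82 from 76.3 ± 3.65 FPKM (SD, n = 4; log2 change -0.40, limma adjusted p = 0.00298).

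Among 11 tested turnover and trafficking genes, 3 rose and 3 fell. Neurl3, a Neuralized-type ubiquitin ligase, fell from 25.4 ± 4.73 to 13.0 ± 2.40 FPKM (SD, n = 4), a log2 change of -0.91 (limma adjusted p = 0.00361). Dtx4, a relative of Dtx1, fell from 4.95 ± 0.422 to 2.97 ± 0.769 FPKM (limma adjusted p = 0.0149). Nedd4, a HECT-type ubiquitin ligase, fell from 11.9 ± 1.31 to 7.62 ± 0.993 FPKM (limma adjusted p = 0.00439). Mib1, the ligase that lets Notch ligands signal by driving their endocytosis, rose from 5.31 ± 0.292 to 7.92 ± 0.288 FPKM (limma adjusted p = 0.000484). The ubiquitin ligase genes Fbxw7 and Itch, named after their values were seen, rose 1.42-fold and 1.22-fold (limma adjusted p = 0.0302 and 0.0379). The other 5 tested genes of the list were not called. The call of Fbxw7 ended without IL-10+ replicate 2 or IL-10- replicates 2, 3 or 4 (adjusted p up to 0.0816). That of Itch ended without IL-10+ replicates 1, 2 or 3 or IL-10- replicates 2, 3 or 4 (adjusted p up to 0.106).

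**Figure D4:**
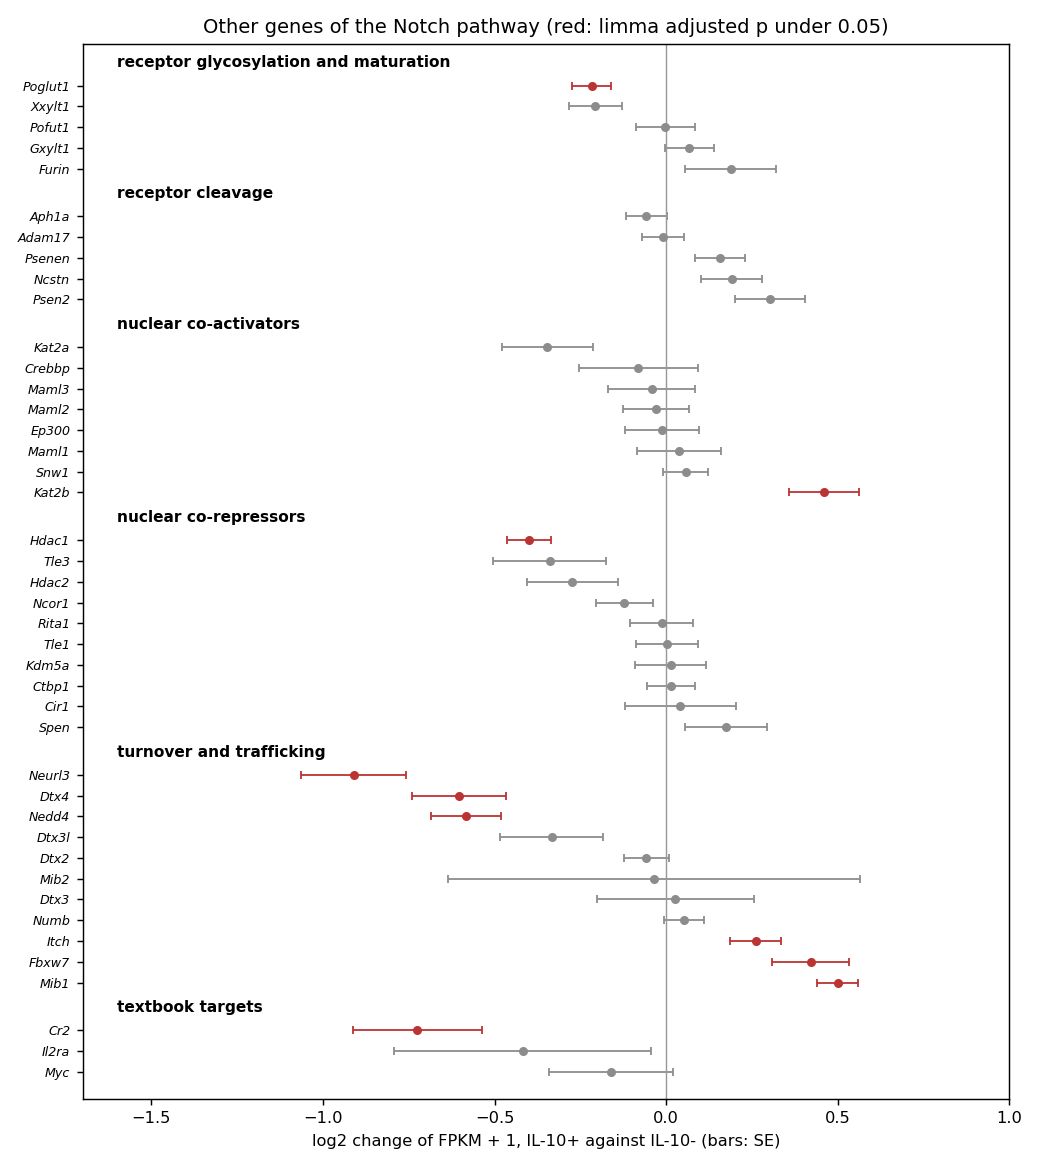
Log2 change of FPKM + 1 in IL-10+ against IL-10- cells for tested pathway genes outside the 9 described above, grouped by list, leaving out those not reported; bars are the SE and red marks limma adjusted p under 0.05. The 4 red points right of 0 are Kat2b, Itch, Fbxw7 and Mib1, and Neurl3 has the lowest value at -0.91.

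Of 12 textbook targets besides Hes1 and Dtx1, 9 stayed below 1 FPKM in every library, among them Hes5, Hey1, Hey2, Heyl and Nrarp, with a highest value of 0.707 FPKM. Of the 3 tested, Cr2, the complement receptor CD21 of marginal zone and follicular B cells, fell to 9.57 ± 3.15 from 15.996 ± 1.648 FPKM (SD, n = 4; log2 change -0.73, limma adjusted p = 0.0276). Its call held only without IL-10+ replicate 3 or IL-10- replicate 2 among the 8 fits that left out a library (adjusted p up to 0.0721 in the others). Myc stood at 85.5 ± 18.1 and 95.7 ± 19.98 FPKM (limma adjusted p = 0.581, and 0.00716 with the replicate block). Il2ra, the interleukin-2 receptor α chain, stood at 10.01 ± 4.41 and 14.0 ± 6.84 FPKM (limma adjusted p = 0.485, and 0.00338 with the block). In all 4 numbers the IL-10+ library had the lower value of Cr2, Myc and Il2ra and the higher value of Hes1 and Dtx1. How many of all genes tested keep 1 direction in all 4 numbers was not counted, so nothing is read from this.

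Markers of B cell subsets differed between the groups beside these genes. The 6 plasmablast markers summed to 435 to 485 FPKM in IL-10+ and 106 to 136 FPKM in IL-10- libraries, and 5 of them were called as higher. Xbp1, a transcription factor of secretory cells, had 188 ± 12.8 FPKM against 46.1 ± 10.7 FPKM without the reporter (SD, n = 4). Follicular markers summed to 107 to 211 and 280 to 540 FPKM, with 4 of 6 called as lower. Of 9 marginal zone markers 5 were called as higher and Cr2 as lower, and Mzb1, which antibody-secreting cells also express, supplied most of their sum of 912 to 972 and 246 to 344 FPKM. The part of these markers in the differences of Notch2, Notch1, Lfng and Hes1 was not tested.

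The genes whose pattern over the 8 libraries was most like that of Lfng, by Pearson's r of log2(FPKM + 1) among 6668 genes, were Pi4ka, Tbc1d14, Phlpp2, Was and Pfn1 (r 0.989 to 0.997). Those most like Hes1 were Dxo, Mia3, Pqlc3, Impact and Cers2 (r 0.986 to 0.994). These coefficients are set largely by the distance between the groups, and the size of the change was not used. Pi4ka, a phosphatidylinositol 4-kinase, stood at 13.9 ± 0.309 and 17.6 ± 0.840 FPKM and Dxo, an RNA decapping enzyme, at 16.3 ± 0.518 and 12.2 ± 0.683 FPKM in IL-10+ and IL-10- cells (SD, n = 4).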

How the data were processed

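Messenger RNA of 8 sorted B cell samples was sequenced, 4 IL-10+ and 4 IL-10-, from NEBNext Ultra libraries per the labels' protocols. The deposited values are FPKM made by the authors with HISAT2 2.1.0 and HTSeq 0.6.0 on mm10, per the submitters' processing notes. The labels and notes do not state the strand setting, the annotation release or how shared reads were handled. Genes that overlap Notch1, Notch2 and Rbpj in GENCODE M21 (GRCm38, the same build) did not exceed 0.325 FPKM. Each column was matched to a sample by its description, and 26550 of 26589 identifiers were found in GENCODE M21.

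FPKM multiplied by exon length and a library total gave whole reads within 0.05 for 92.8% to 93.5% of values above 0, which set the totals, so that a single read in 1 kb comes to 0.0334 to 0.0365 FPKM. Chi-square per degree of freedom between libraries of a group was 9.82 or more, so none were near-copies. FPKM are not counts, so limma 3.58.1 in R 4.3.3 was fitted with a variance trend to log2(FPKM + 1) over genes reaching 1 FPKM in 4 or more libraries, with Benjamini-Hochberg adjustment, and was tested on simulated data. Fold changes on this scale understate those of low genes; folds named without log2 are ratios of group means in FPKM.

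The 9 genes and all lists were chosen with earlier results of these data known. Named besides the 9 were, in each list, up to 4 called genes with the largest change, 2 of the most abundant others where fewer than 2 were called, and the 5 genes most correlated with each of the 2 members that changed most, among genes of mean 5 FPKM or more and without predicted genes or immunoglobulin segments. The fit held no term for the replicate number. Same-numbered libraries had deviations from their group means that correlated at 0.712, 0.583, 0.621 and 0.700, and all 8 libraries correlated best with their own number. By the rule set for this check (every correlation over 0.1) the numbers pair the samples, though the labels are silent on this. The SEs, and the calls and adjusted p-values given without the block, leave this pairing out. With the block the SE was 0.0548 in place of 0.143 for Notch2 and 0.0467 in place of 0.150 for Dtx1. With the block 6083 genes were called, against 2236 without it. Alternatives changed the pseudocount, the filter, the scaling, the trend, the block and the libraries included. Some genes of the lists are counted but not reported here by name.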

Additional observations from a re-analysis of the deposited data

Results flagged for a closer look

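In 6 of the 80 groups of 4 values examined, the highest or lowest library stood apart by more than the critical share of the range in Dixon's test; about 1 in 20 groups does so by chance. Among the members, Notch1 made up 22.5% of the summed receptor FPKM in IL-10- replicate 4, against 17.7% to 18.5% in the other IL-10- libraries, still below the lowest IL-10+ library. The ratio of Mfng to Lfng was 6.19 in IL-10+ replicate 1 and 8.53 to 9.0 in the other IL-10+ libraries, all above the IL-10- libraries. Among other pathway genes, Ep300 stood at 22.2 FPKM in IL-10- replicate 1 (16.5 to 16.9 FPKM in the others), Gxylt1 at 11.7 FPKM in IL-10+ replicate 3 (9.82 to 10.1 FPKM), Hdac1 at 53.4 FPKM in IL-10+ replicate 1 (58.4 to 59.3 FPKM) and Jag2 at 0.114 FPKM in IL-10+ replicate 3 (0.210 to 0.221 FPKM).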

How the results depend on the processing

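For the 9 genes no called log2 change changed sign under any alternative, and 2 of them moved by more than the spread between libraries, both with a pseudocount of 0.1, to -1.75 for Lfng and 1.67 for Hes1; a smaller pseudocount shrinks low genes less by construction. The number of the 9 that were called was 2 with only genes of a mean of at least 5 FPKM, which leaves out Lfng, Hes1 and Rbpj, 7 when the replicate block was joined to median-of-ratios scaling, 2 within replicates 1 and 2 (Hes1 and Lfng), and 3 to 4 when 1 library was left out, Notch1 being the gene lost. Of all genes tested 2236 were called, 6083 with the replicate block, 5625 with the block and median-of-ratios scaling, 1106 within replicates 1 and 2, and 1621 to 2055 when 1 library was left out. Of the other pathway genes 11 were called, 24 with the block, also with median-of-ratios scaling, 4 within replicates 1 and 2, and 6 to 10 when 1 library was left out. No called pathway gene that is named turned its direction, and calls that ended with 1 library left out or another scaling stand with the genes above. Within replicates 1 and 2 the calls of Hdac1 (limma adjusted p = 0.0841), Nedd4 (0.0702), Dtx4 (0.0700), Fbxw7 (0.0623), Itch (0.127) and Poglut1 (0.141) ended. Within replicates 3 and 4 those of Cr2 (0.0993), Fbxw7 (0.0513), Itch (0.1001) and Poglut1 (0.151) did, and with no filter on low values those of Cr2 (0.0692), Fbxw7 (0.0704) and Itch (0.0591). Some of these fits held fewer genes or libraries, and the causes of these shifts were not tested. Depth limits Hes1 in IL-10- libraries, at 27 to 62 reads, and the ligands, too low to be tested.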

Other observations

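Mib2, a second Mind bomb ligase gene, differed by replicate number and not by group. It stood at 27.5 and 24.8 FPKM in IL-10+ replicates 1 and 2 and 29.3 and 27.98 FPKM in IL-10- replicates 1 and 2, but at 7.65 and 7.63 FPKM in IL-10+ replicates 3 and 4 and 7.39 and 7.19 FPKM in IL-10- replicates 3 and 4. The mean of replicates 1 and 2 was 3.67 times that of 3 and 4. Of the 11329 genes tested, 2591 (22.9%) had no overlap between these pairs of numbers, and 48 of those were at least 3-fold apart. Among the 9 genes described, Mfng (0.793 times) and Rbpj (1.30 times) also showed no overlap between replicates 1 and 2 and replicates 3 and 4. Mib1, by contrast, followed the group and varied little by number.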
